A study of Mus musculus with 1457 samples.

Results

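The comparison held 83 single cells of 1457 in the series: 42 cells of intra-aortic hematopoietic clusters (IAHC) and 41 cells in endothelial-to-hematopoietic transition (EHT), both from the aorta-gonad-mesonephros region of E10.5 embryos. They were taken by their labels, as cells whose title and stage field both name E10.5, whose title names the gate FACS-IAHC or FACS-EHT, and which have at least 100000 reads; no cell of either group fell below that number. The embryos were of strain ICR and of genotype Gfi1:Tomato/WT Gfi1b:GFP/WT, so that every cell of both groups was heterozygous at both reporter loci and the groups carried the same alleles. According to the series' design, both gates excluded CD45 and TER119 and required CD41, KIT, CDH5 and the GFI1 reporter. The gates differed in the GFI1B reporter alone, which was negative for EHT and positive for IAHC. Single cells were sorted into wells and their RNA was amplified by a modified Smart-seq2 protocol, which reads whole transcripts without molecular identifiers. No label names an embryo or litter, so each group is 1 sample of pooled cells, no test was made, and every interval covers counting error only. Reads are not independent molecules, so even counting error is understated.

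In the mid-gestation embryo, hemogenic endothelial cells in the floor of the dorsal aorta switch on the transcription factor RUNX1, lose their arterial and endothelial programme, round up and gather in clusters that hold the first blood stem and progenitor cells. GFI1 and its paralogue GFI1B are zinc-finger repressors that act below RUNX1 and silence endothelial genes through a corepressor complex with the demethylase LSD1. GFI1 marks the hemogenic wall of the aorta and GFI1B the cells within the clusters.

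Depth was similar in the groups. EHT cells had 319003 to 716358 reads (median 509725) and IAHC cells 295403 to 1632137 reads (median 546102). The median cell had reads of 7682 genes in EHT and 7712 genes in IAHC, and mitochondrially encoded genes took a median of 3.12% and 3.41% of reads. No cell of either group held 1% of its reads in globin genes, all 83 columns held distinct values, and the median log2 ratio over all 16603 genes measured was -0.01. Levels below are CPM: the summed reads of a gene in a group, divided by all reads of that group and given per 1000000, not per length, so they compare groups and not genes.

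The gate genes came first. Gfi1b (chromosome 2, 28609450 to 28621982, minus strand of GRCm38, ENSMUSG00000026815), whose reporter separates the gates, was at 156.4 CPM in IAHC (95% exact Poisson interval 151.6 to 161.4) and 50.1 CPM in EHT (47.1 to 53.2). Per cell it ran from 0 to 587.8 CPM in IAHC (median 124.4) and from 0 to 534.6 CPM in EHT (median 0). This difference follows from the sort and is a check of the labels, not a result. Reads of Gfi1b were present in 39 of 42 IAHC cells and in 18 of 41 EHT cells, so the transcript was also read in part of the cells that were reporter-negative. Gfi1, whose reporter both gates require, was at 69.7 CPM in IAHC and 136.5 CPM in EHT, with reads in 29 of 42 and 37 of 41 cells. The difference of 1.96-fold by summed reads did not reach the 2-fold used here, though the means of per-cell CPM were 2.16-fold apart. The per-cell ranges overlapped, from 0 to 493.3 CPM (median 18.1, upper quartile 73.2) and from 0 to 540.2 CPM (median 116.4, lower quartile 35.5). Within these ranges the IAHC cells lay lower. Kit, which encodes the stem cell factor receptor used in both gates, was read in every cell, at 532.8 CPM in IAHC and 607.2 CPM in EHT. Itga2b, which encodes CD41, was at 54.1 and 38.4 CPM with reads in 30 of 42 and 24 of 41 cells. Runx1, the master regulator of the transition, was read in all 83 cells, at 183.9 CPM in IAHC (per cell 13.2 to 524.3, median 156.99) and 233.7 CPM in EHT (18.4 to 858.02, median 202.9). Cdh5 encodes VE-cadherin and is the endothelial marker of both gates. It was the gate gene at least 2-fold lower in IAHC by both measures: 117.9 CPM (113.7 to 122.2) against 397.9 CPM (389.3 to 406.6). Its per-cell levels ran from 0 to 403.2 CPM in IAHC (median 70.5) and from 0 to 1032.4 CPM in EHT (median 355.8), and 18 of the 41 EHT cells lay above the highest IAHC cell.

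The other 4 markers fixed for the comparison split by role. Rac2 (chromosome 15, 78559167 to 78572783, minus strand, ENSMUSG00000033220), a small GTPase of blood cells, was at 287.01 CPM in IAHC (280.4 to 293.7) and 41.2 CPM in EHT (38.5 to 44.1), or 6.96-fold higher in IAHC by summed reads. Per cell it ran from 0 to 955.1 CPM in IAHC (median 194.2) and from 0 to 556.5 CPM in EHT (median 0). Reads were present in 34 of 42 IAHC cells (80.95%, Clopper-Pearson 65.9 to 91.4%) and 11 of 41 EHT cells (26.8%, 14.2 to 42.9%), and in 33 and 11 cells once each cell was thinned to 100000 reads. Most EHT cells were at 0, but the groups overlapped: 8 IAHC cells lay above the highest EHT cell. Ptprc (chromosome 1, 138062861 to 138175708, minus strand, ENSMUSG00000026395) encodes CD45, the pan-leukocyte phosphatase whose surface protein both gates excluded. It was at 85.4 CPM in IAHC (81.8 to 89.04) and 27.7 CPM in EHT (25.5 to 30.1), with per-cell values of 0 to 522.01 CPM (median 9.73) and 0 to 361.9 CPM (median 0). A single IAHC cell held 39.5% of the group's Ptprc reads, and among cells with at least 500000 reads the log2 ratio was 1.24 and Ptprc no longer met the 2-fold rule.

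Gja5 (chromosome 3, 96904693 to 97077416, plus strand, ENSMUSG00000057123), the arterial gap junction protein connexin 40, was at 1.70 CPM in IAHC (1.23 to 2.29) and 76.4 CPM in EHT (72.7 to 80.3), 44.95-fold lower in IAHC. It had reads in 4 of 42 IAHC cells (9.52%, 2.66 to 22.6%), none above 61.8 CPM, and in 20 of 41 EHT cells (48.8%, 32.9 to 64.9%), up to 625.7 CPM. Thinned cells gave 3 and 20 cells with reads. The median cell was at 0 in both groups, so the difference lay in a subset of EHT cells, 11 of which exceeded every IAHC cell. Nrp1 (chromosome 8, 128358604 to 128503363, plus strand, ENSMUSG00000025810) encodes neuropilin 1, a co-receptor for VEGF and semaphorins. It was at 13.4 CPM in IAHC (11.98 to 14.9) and 269.5 CPM in EHT (262.5 to 276.7), 20.2-fold lower in IAHC. Per cell it ran from 0 to 220.99 CPM in IAHC (median 0) and from 0 to 1788 CPM in EHT (median 29.2), with reads in 7 of 42 and 26 of 41 cells. As with Gja5, EHT cells spread from 0 to high levels while nearly all IAHC cells were at or near 0.

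**Figure D1:**
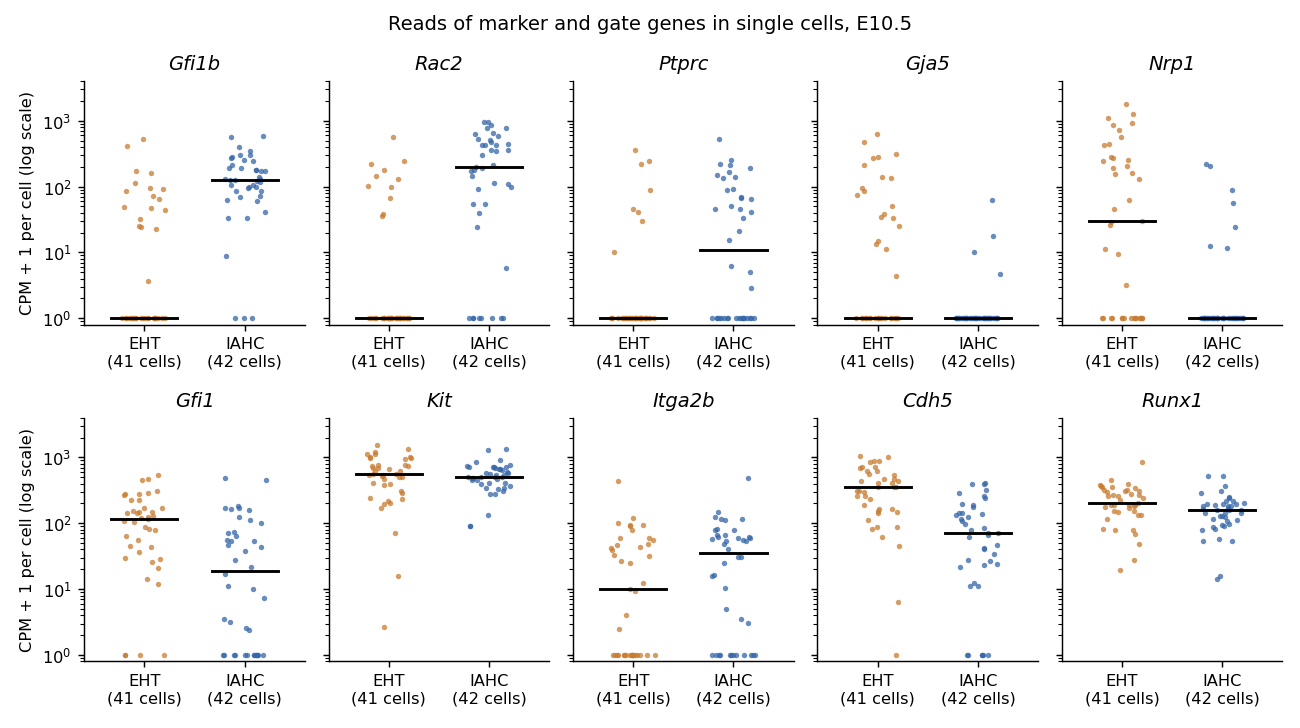
Level of 10 marker and gate genes in each cell (vertical axes, CPM + 1, log scale; each point 1 cell, shifted sideways at random; black bars are medians) for 41 EHT and 42 IAHC cells. Gja5 and Nrp1 reach 625.7 and 1788 CPM in part of the EHT cells, Rac2 and Gfi1b are read in most IAHC cells, and the values of Kit and Runx1 overlap widely between the groups.

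The promoters of 4 of these 5 markers were held in the RefSeq table used here (GRCm38.p6), and they are shown because these genes separate the groups. Each is the 250 bases before the start site, 5′ to 3′ on the gene's strand, with matches to the core motifs AAATCA (GFI1), GAGGAA (PU.1), TGTGGT (RUNX) and TGGGAA (RBPJ), searched on both strands, in capitals. Ptprc had 2 annotated start sites, of which the most upstream is shown. The start sites are those of RefSeq, while the gene spans given above are those of GENCODE. The windows of Ptprc, Gja5 and Nrp1 lie within those spans. Gfi1b lies at chr2:28621983-28622232 (minus strand), Ptprc at chr1:138175306-138175555 (minus), Gja5 at chr3:97032152-97032401 (plus) and Nrp1 at chr8:128358823-128359072 (plus).
Gfi1b: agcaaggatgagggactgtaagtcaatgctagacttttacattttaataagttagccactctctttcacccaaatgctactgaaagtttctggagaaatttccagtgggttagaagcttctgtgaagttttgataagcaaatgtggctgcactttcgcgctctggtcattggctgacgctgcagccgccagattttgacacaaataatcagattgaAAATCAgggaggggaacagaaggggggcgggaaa
Ptprc: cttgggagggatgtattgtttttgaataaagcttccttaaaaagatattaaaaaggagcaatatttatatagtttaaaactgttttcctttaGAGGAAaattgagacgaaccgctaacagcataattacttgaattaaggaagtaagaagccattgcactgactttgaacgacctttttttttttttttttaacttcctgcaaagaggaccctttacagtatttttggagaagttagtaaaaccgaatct
Gja5: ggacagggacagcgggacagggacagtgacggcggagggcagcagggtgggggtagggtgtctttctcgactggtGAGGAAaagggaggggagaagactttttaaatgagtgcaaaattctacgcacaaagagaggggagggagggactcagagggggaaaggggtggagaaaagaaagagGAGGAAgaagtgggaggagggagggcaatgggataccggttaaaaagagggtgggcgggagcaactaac
Nrp1: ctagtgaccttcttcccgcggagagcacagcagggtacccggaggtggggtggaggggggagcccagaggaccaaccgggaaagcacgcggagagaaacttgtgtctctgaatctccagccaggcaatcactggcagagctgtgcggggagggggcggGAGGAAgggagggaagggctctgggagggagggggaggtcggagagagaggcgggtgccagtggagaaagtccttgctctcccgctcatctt

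In these windows Gfi1b held 1 AAATCA match, which began 34 bases before the start. GAGGAA matched once in Ptprc, at 2 places in Gja5 (the nearer one 69 bases before the start) and once in Nrp1 (92 bases before the start). Neither TGTGGT nor TGGGAA was in any of the 4, and no matches overlapped. Over the promoters of all genes, 12.4% of 32851 windows held AAATCA, 23.3% GAGGAA, 14.05% TGTGGT and 21.6% TGGGAA. A match is only these letters in these windows.

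Across all genes, more were lower than higher in IAHC. A gene was counted as past the fold where the groups were at least 2-fold apart both in CPM of summed reads and in the mean CPM of single cells, and where the higher group had at least 20 CPM and reads in at least 25% of its cells; 7847 genes could have met this. Of these, 2.19% were higher in IAHC and 6.09% lower, 8.28% in either direction. For comparison, the sorts of the same EHT gate at E10.5 and at a titled E11.5 differed by the same rule at 11% of 8285 genes, so the share between IAHC and EHT was no larger than that between these 2 sorts of a single gate. Those 2 sorts were not matched in depth, with a median of 305240 reads in the cells titled E11.5 against 509725, and the stage field of the former says E10.5. EHT against HE, the hemogenic endothelium sorted from the same line and stage, gave 15.9% of 8183 genes once 16 HE cells with at least 1% globin reads were left out, and 14.8% of 7962 genes with them.

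**Figure D2:**
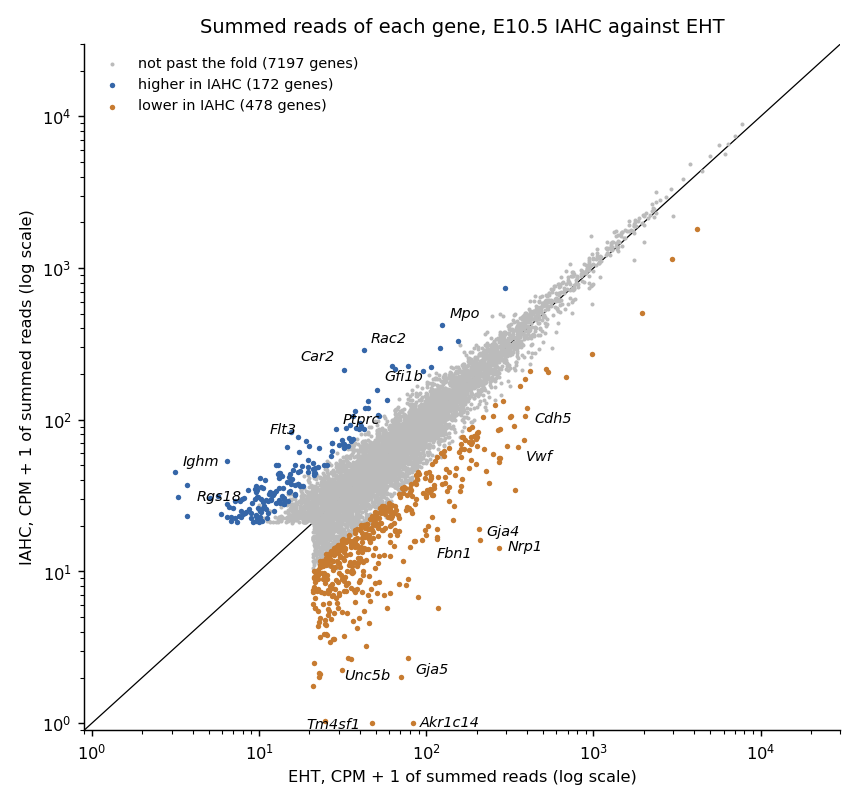
Each point is a gene that could be counted, at its CPM + 1 of summed reads in EHT (horizontal) and IAHC (vertical), log scales, with the diagonal of equal levels. The genes higher (2.19%) and lower (6.09%) in IAHC lie on either side, and Akr1c14, Tm4sf1, Unc5b and Gja5, at 1.70 CPM or less in IAHC, have 46.2 to 81.9 CPM in EHT.

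The 15 genes with the largest ratio in favour of IAHC are given next, without a test of what they share. Ighm, the constant region of the immunoglobulin mu heavy chain, was at 44.6 CPM in IAHC and 2.14 CPM in EHT, 20.9-fold higher. It was read in 13 of 42 IAHC cells but in a single EHT cell. Rgs18, a regulator of G-protein signalling of platelets and progenitors, was at 36.02 against 2.72 CPM, with reads in 22 of 42 and 4 of 41 cells. Il18rap, a subunit of the interleukin 18 receptor, was at 29.9 against 2.28 CPM, and Tespa1, a T-cell signalling adaptor, at 52.2 against 5.39 CPM. Car2, the cytosolic carbonic anhydrase of erythroid and other blood progenitors, was at 210.7 against 31.03 CPM and was read in 39 of 42 IAHC cells and 20 of 41 EHT cells. Nckap1l, the blood-cell subunit of the WAVE actin-nucleation complex, was at 82.4 against 14.6 CPM. Tyrobp, the signalling adaptor of myeloid and NK receptors, was at 75.6 against 16.02 CPM, and Ptprcap, a protein bound to CD45, at 64.8 against 13.7 CPM. Serpinb1a, an inhibitor of neutrophil proteases, and Ramp1, a subunit of the receptor for the neuropeptide CGRP, were 6.49-fold and 7.26-fold higher. Nfkbid, Mkrn2, Chchd10 and Zfp760 completed the 15 with Rac2. The call of Nfkbid, at 22.2 against 2.72 CPM, was lost when cells were weighted equally, thinned, or stripped of the cell with the most reads. With cells weighted equally it was at 19.9 against 2.13 CPM, still 9.36-fold apart but under the 20 CPM that a call needs.

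The 15 genes with the largest ratio in favour of EHT include Gja5 and Nrp1, described above. Akr1c14, a hydroxysteroid dehydrogenase, had no read in 42 IAHC cells (by a floor of 3 cells, 0 of 42 allows a share with reads of up to 7.14%, and the Clopper-Pearson limit is 8.41%), and was at 81.9 CPM in EHT with reads in 12 of 41 cells (highest cell 801.4 CPM). Against a floor of 3 reads over the IAHC group this is 690.6-fold lower, with a lower counting limit of 561.03-fold. Tm4sf1, an endothelial tetraspanin-like protein, also had no IAHC read and was at 46.2 CPM in EHT. Against the same floor of 3 reads it was 389.3-fold lower, with a lower counting limit of 315.997-fold. Unc5b, the netrin receptor of arterial and tip cells, was at 1.03 against 70.1 CPM, with reads in 4 of 42 and 19 of 41 cells. Itga1, a collagen-binding integrin subunit, had 1 read in IAHC and 23.6 CPM in EHT (ratio 598.1, counting interval 106.8 to 23671, or 199.4 against the same floor of 3 reads). Ctsh (cathepsin H, a lysosomal protease) was at 4.74 against 116.01 CPM, Fas (the death receptor) at 2.21 against 42.4 CPM, and Bcar1 (an adaptor of focal adhesions) at 1.66 against 34.5 CPM. Prex2, an exchange factor for Rac, was 24.9-fold lower and Stmn2, a microtubule-destabilising protein, 15.2-fold lower. Tmem88, Bmper and Mapk12, with 21.9 to 33.02 CPM in EHT, were among these 15, but their reads came from 12 to 17 EHT cells. Akr1c14, Tmem88 and Mapk12 lost the call in thinned cells, and Itga1, Bmper and Mapk12 when the cell with the most reads of the gene was left out. After thinning, Akr1c14 and Tmem88 each had reads in 24.4% of EHT cells, under the 25% that a call needs.

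The arterial genes were the list that differed most. Of 19 members measured, 15 were lower in IAHC by a log2 ratio of at least 1 in size (CPM + 1) and 0 higher, with a median of -3.05; over all 16603 genes measured, 10.3% were lower and 6.28% higher by this rule, with a median of -0.01. Gja4, which encodes connexin 37, was at 18.2 CPM in IAHC (16.6 to 19.9) and 205.7 CPM in EHT (199.6 to 212.03). It ran per cell from 0 to 691.5 CPM in IAHC (median 0) and from 0 to 1544 CPM in EHT (median 18.1), and a single cell held 63.3% of the IAHC reads. Dll4, the arterial Notch ligand, was at 7.24 against 67.3 CPM with reads in 3 of 42 and 23 of 41 cells. Hey1, a target of Notch in arteries, was at 7.16 against 74.4 CPM, and Efnb2, the arterial ephrin, at 10.7 against 71.3 CPM. Sox17, a transcription factor of arterial and hemogenic endothelium, was at 6.25 against 60.1 CPM and Epas1 (HIF-2 alpha) at 7.87 against 76.8 CPM. The 4 members between the thresholds were Jag2, Cxcr4, Vegfc and Notch1, the last at 72.8 against 123.2 CPM.

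Signalling genes of the vessel followed. In the Notch and BMP/TGF-beta list, 15 of 20 measured members were lower and 0 higher, median -1.94 (-1.86 with the 2 genes without IAHC reads set at the floor); 6 of these 15 are also arterial genes. Of the Notch ligands, Jag1 was lower, at 2.81 against 24.3 CPM, and Jag2, at 11.2 against 21.3 CPM, lay between the thresholds. The target gene Hes1 was at 6.64 against 45.8 CPM and the receptor gene Notch4 at 6.41 against 31.95 CPM. Rbpj, which encodes the DNA-binding factor of the pathway and is not in the list, was at 37.6 against 39.4 CPM. Mfng, which modifies Notch receptors, was at 172.98 against 158.7 CPM. On the BMP side the receptor Acvrl1 (ALK1) was at 2.45 against 25.5 CPM and the inhibitor Smad6 at 7.39 against 32.97 CPM. Among direct targets Id1 was at 31.7 against 95.1 CPM and Id3 at 44.7 against 226.5 CPM. Of 20 VEGF, semaphorin and angiopoietin receptors and ligands, 11 were lower and 0 higher, median -1.06. Of these, Nrp1, Unc5b and Efnb2 are also arterial genes, and Kdr, Flt1 and Tek are also in the pan-endothelial list, as is Eng of the Notch and BMP/TGF-beta list. Kdr, the main VEGF receptor, was at 25.3 against 77.6 CPM and Tek, the angiopoietin receptor, at 61.998 against 178.6 CPM, while Tie1 (173.3 against 279.4 CPM) and Vegfc (80.5 against 98.9 CPM) lay between the thresholds.

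Pan-endothelial genes were lower by less. Of 20 measured, 14 were lower and 0 higher, median -1.15, and all 20 still had reads in IAHC. Plvap, the diaphragm protein of endothelial pores, was at 72.8 against 382.8 CPM, Icam2 at 55.2 against 275.9 CPM and Ramp2, a subunit of the adrenomedullin receptor, at 105.4 against 388.5 CPM. Ramp2 was read in all 41 EHT cells and in 27 of 42 IAHC cells. Sox7, a SoxF factor, was at 28.1 against 136.5 CPM with reads in 5 of 42 and 28 of 41 cells. Members between the thresholds were Tie1, Emcn, Egfl7, Ecscr, Robo4 and Erg. Among junction and caveolae genes 12 of 18 were lower and 0 higher, median -1.23: Cldn5, the tight junction protein of endothelium, was at 58.8 against 251.1 CPM, Nos3, the endothelial nitric oxide synthase, at 2.77 against 31.2 CPM and Cgnl1, a junctional scaffold, at 17.95 against 114.3 CPM. Cdh5, Cldn5 and Esam are in both the junction and the pan-endothelial list. In the extracellular matrix and adhesion list, which shares Mmrn2 with the pan-endothelial list, 14 of 19 were lower and 1 higher, median -1.78. Fbn1 (fibrillin 1) was at 15.2 against 208.5 CPM, Col4a2 and Hspg2 (perlecan) of the basement membrane at 55.2 against 269.4 CPM and 33.1 against 158.9 CPM, and Fn1 (fibronectin) at 506.9 against 1955 CPM. The member that was higher, Fbln5, had 1.94 CPM in IAHC and no EHT read. Igfbp3, at 5.18 against 28.3 CPM, rested on single cells, which held 84.7% of its IAHC reads and 62.95% of its EHT reads, and its log2 ratio turned to 0.12 among cells with at least 500000 reads.

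**Figure D3:**
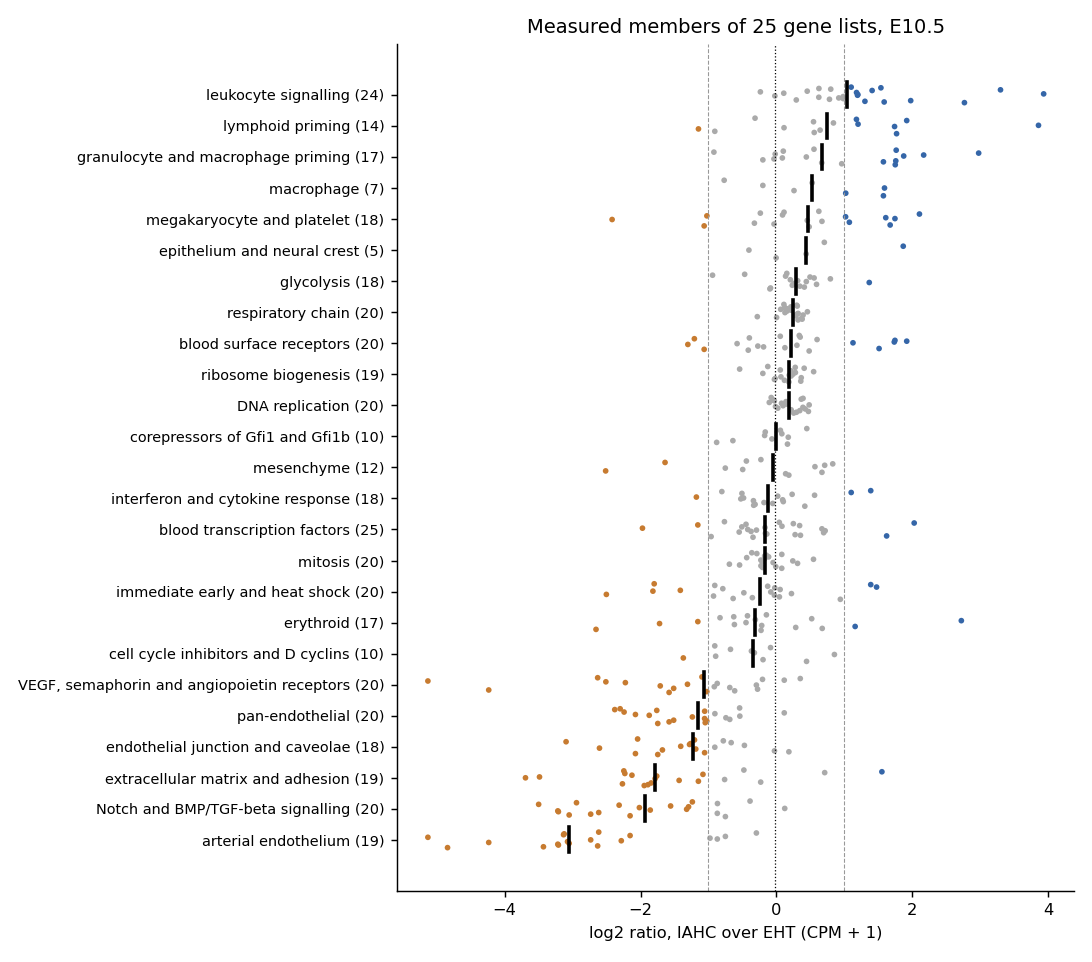
Log2 ratio of IAHC over EHT (CPM + 1, horizontal) for each measured member (points) of 25 gene lists, with the number measured in parentheses and the median as a black bar; dashed lines mark a ratio of 1 in size. Endothelial lists sit to the left, with arterial endothelium at a median of -3.05, leukocyte signalling sits to the right at 1.04, and cell cycle and metabolic lists centre near 0.

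On the blood side, leukocyte signalling genes were higher. Of 24 measured, 12 were higher and 0 lower, median 1.04 (0.98 with genes at 0 reads set at the floor). Of 20 with enough reads for the fold rule, 8 were higher and 0 lower. Coro1a, the actin-binding coronin of leukocytes, was at 733.9 against 296.5 CPM. Vav1, the exchange factor that activates Rac proteins, was at 49.1 against 11.7 CPM and was read in 29 of 42 IAHC and 13 of 41 EHT cells. Sla, an adaptor that restrains antigen receptor signalling, was at 105.4 against 35.6 CPM. Fermt3 (kindlin 3, which activates integrins of blood cells) was at 86.99 against 32.1 CPM, but its call was lost among cells with at least 500000 reads. Members between the thresholds were not absent from EHT: Laptm5, a lysosomal membrane protein of leukocytes, was at 330.8 against 270 CPM and Plcg2, a phospholipase of B cells, at 283.02 against 287.3 CPM.

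Genes of the myeloid, lymphoid and megakaryocyte branches were higher in part. The counts below include members near the floor, such as Il7r (2.41 CPM in IAHC) and Treml1 (1.03 CPM), both without an EHT read. Of members with enough reads for the fold rule, 4 of 11 myeloid, 4 of 6 lymphoid and 3 of 10 megakaryocyte genes were higher. Lower by that rule were 0, 1 and 2. Over all genes it gave 2.19% higher and 6.09% lower. In the granulocyte and macrophage list 7 of 17 measured members were higher and 0 lower, median 0.67. Mpo, the myeloperoxidase of granulocyte progenitors, was at 418.9 CPM in IAHC (410.98 to 426.97) and 123.7 CPM in EHT (118.97 to 128.6); it ran from 0 to 1285.2 CPM per cell in IAHC (median 362.1) and from 0 to 780.3 CPM in EHT (median 31.1), with 8 IAHC cells above every EHT cell. Fcer1g, the common Fc receptor gamma chain, was at 226.5 against 60.99 CPM, and Csf3r, the G-CSF receptor, at 65.99 against 18.8 CPM. Lyz2 (lysozyme, 136.1 against 156.4 CPM) and Cebpb (54.4 against 55.02 CPM) differed little. In the lymphoid list 6 of 14 were higher and 1 lower, median 0.74. Flt3, the cytokine receptor of multipotent progenitors, was at 71.3 against 18.1 CPM with reads in 31 of 42 and 8 of 41 cells, and Satb1, a chromatin organiser of lymphoid cells, at 43.4 against 12.3 CPM. Il2rg, the shared interleukin receptor chain, was the member that was lower, at 18.7 against 42.5 CPM, and Rag1, Rag2, Dntt and Cd3e had at most 3 reads in either group. In the megakaryocyte and platelet list 6 of 18 were higher and 3 lower, median 0.47. Plek (pleckstrin) was at 113.2 against 36.4 CPM and Pf4 (platelet factor 4) at 30.1 against 8.74 CPM. The members that were lower were Vwf (65.6 against 355.01 CPM), Itgb3 (103.2 against 216.7 CPM) and Selp, all of which endothelial cells also make.

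Surface receptors of stem and progenitor cells went both ways. Of 20 measured, 5 were higher and 3 lower, median 0.21. Of 16 with enough reads for the fold rule, 3 were higher and 2 lower. Ly6e was higher, at 207.3 against 94.3 CPM, beside Flt3, Itgb2 and Cd48. Procr, the endothelial protein C receptor that also marks blood stem cells, was lower, at 77.5 against 192.8 CPM, and 23 of 42 IAHC cells had its reads against 35 of 41 EHT cells. Cd34, the sialomucin of progenitors and endothelium, was at 1001.96 and 917.95 CPM, and Cd44 at 170.5 and 206.1 CPM.

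Most blood transcription factors lay between the thresholds, as did most genes measured. Over all 16603 genes measured, 6.28% were higher and 10.3% lower by the log2 rule used for the lists. Of 25 measured, 2 were higher (Gfi1b, which follows from the sort, and Cebpa) and 2 lower (Mecom, Gata1), median -0.16, so 21 lay between the thresholds. Mecom, the stem cell factor EVI1 that arterial endothelium also expresses, was at 49.9 CPM in IAHC (47.1 to 52.7) and 198.5 CPM in EHT (192.4 to 204.6), with 12 of 41 EHT cells above every IAHC cell. Spi1, which encodes PU.1, was at 313.3 against 244.7 CPM, Myb at 206.99 against 170.7 CPM and Gata2 at 85.7 against 125.7 CPM. Ikzf1, the lymphoid factor Ikaros, was at 184.5 against 111.7 CPM with reads in 40 of 42 and 29 of 41 cells. Cebpa (3.08 CPM in IAHC, no EHT read) and Gata1 (0.277 against 1.85 CPM) were barely read. All 10 genes of the corepressor complex of GFI1 and GFI1B lay between the thresholds, where most genes measured also lay. The demethylase gene Kdm1a (LSD1) was at 147.995 against 131.98 CPM and its partner Rcor1 (CoREST) at 51.2 against 95.1 CPM. The deacetylase genes Hdac1 and Hdac2 were at 120.8 against 126.4 CPM and 261.3 against 231.2 CPM.

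Markers of other cells that a sort could carry ranged from no reads to over 100 CPM. Of 15 macrophage genes 7 were measured, with 3 higher (Csf1r, Mrc1 and Fcgr1, each under 10 CPM) and 0 lower, and the defining genes Adgre1, C1qa, C1qb, C1qc, Timd4 and Cd163 had at most 3 reads in either group. The summed level of the macrophage list ran from 0 to 505.1 CPM per cell in IAHC and from 0 to 649.4 CPM in EHT, most of it Lyz2. Of 17 erythroid genes measured, 2 were higher (Car2, Hbb-bt) and 3 lower (Hbb-y, Epor, Gata1). Hbb-y, embryonic globin, was at 2.69 against 22.2 CPM, a call that was lost under 3 of the alternatives, and Alas2 was under 2 CPM in both groups. Reads of near-identical copies such as Hbb-bs and Hbb-bt and of Hspa1a and Hspa1b can be split by counting, so their single values are uncertain. Of 12 mesenchymal genes, 2 were lower (Acta2, Col1a2) and 0 higher; Acta2, smooth muscle actin, was at 84.97 against 266.7 CPM and ran up to 2627 CPM in an EHT cell. Between the thresholds, Dlk1 was at 117.3 against 65.5 CPM, with reads in 83.3% and 51.2% of cells, and Postn at 33.1 against 19.81 CPM, while Dcn, Lum and Tcf21 had at most 3 reads in either group. Of 15 epithelial and neural crest genes 5 were measured, with 1 higher (Pax8, at 9.57 against 1.89 CPM) and 0 lower. Krt18, a keratin of simple epithelia, was at 69.4 against 92.1 CPM with reads in 73.8% and 80.5% of cells, and Cdh1, Wt1, Sox10 and Th had at most 3 reads in either group. The part of these cell types in the other results was not tested.

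Genes of proliferation and metabolism mostly lay between the thresholds, as did most genes. Over all 16603 genes measured, 6.28% were higher and 10.3% lower. All 20 DNA replication genes (median 0.18), all 20 mitosis genes (median -0.17), all 19 ribosome biogenesis genes (median 0.19) and all 20 respiratory chain genes (median 0.25) lay between the thresholds. Mki67, the proliferation antigen, was at 292.6 against 473.1 CPM with reads in 36 of 42 and 37 of 41 cells, and Mcm7, of the replicative helicase, at 414.5 against 308.3 CPM. Of 10 cell cycle inhibitors and D cyclins measured, 1 was lower and 0 higher. The member that was lower was Cdkn1c (p57), a cell cycle inhibitor of quiescent stem cells and endothelium. It was at 76.4 CPM in IAHC (73.02 to 79.9) against 198.99 CPM in EHT (192.9 to 205.2), with reads in 33 of 42 and 40 of 41 cells. Of 18 glycolysis genes, 1 was higher (Aldoc, 1.58 CPM against no EHT read) and 0 lower, median 0.29, and the glucose transporter gene Slc2a1 was at 145.2 against 279.4 CPM. Among 20 immediate early and heat shock genes, which dissociation and sorting can raise, 2 were higher (Zfp36, Socs3) and 4 lower (Atf3, Hspa1a, Hspa1b, Klf6), median -0.24. Zfp36 was at 117.8 against 41.7 CPM and Klf6 at 30.7 against 109.4 CPM; Fos (156.8 against 81.1 CPM) and Jun (208.6 against 266.7 CPM) lay between the thresholds. Of 18 interferon and cytokine response genes 2 were higher (Il6ra, Socs3) and 1 lower (Tlr4), median -0.12.

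The levels of the 2 groups were then set beside the endothelial (Endo, 73 cells) and HE gates of the same line and stage, leaving out HE cells with at least 1% globin reads (79 cells remained). Gja5 was at 160.2 CPM in Endo, 1026.99 in HE, 76.4 in EHT and 1.70 in IAHC, so that it peaked in HE and was below Endo in EHT. Nrp1 had the same order, at 391.01, 1126.8, 269.5 and 13.4 CPM. Vwf was at 148.2, 929.7, 355.01 and 65.6 CPM, and Mecom at 96.8, 388.6, 198.5 and 49.9 CPM, so that both were still above Endo in EHT and below it in IAHC. The blood genes had a different order over the gates. Gfi1b, whose step from EHT to IAHC follows from the sort, was at 0 CPM in Endo, 9.06 in HE, 50.1 in EHT and 156.4 in IAHC. Rac2 was at 0, 0.483, 41.2 and 287.01 CPM, and Mpo at 2.69, 0.0193, 123.7 and 418.9 CPM. Ptprc was at 0, 2.38, 27.7 and 85.4 CPM, and Flt3 at 0, 0.0193, 18.1 and 71.3 CPM. For Rac2, Mpo, Flt3 and Ptprc the step from HE to EHT was thus larger as a ratio than the step from EHT to IAHC, while for Gja5 each of those steps was over 10-fold. In HE, however, Mpo and Flt3 were under a floor of 3 reads (0.0439 CPM over all 95 HE cells). Rac2 and Ptprc were each read in 1.05% of those 95 cells, so the size of these 4 ratios from HE is uncertain. Counted per cell at 100000 reads, the median cell had reads of 8 arterial genes in Endo, 16 in HE, 9 in EHT and 3 in IAHC. For leukocyte signalling genes these medians were 4, 7, 12 and 18.

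**Figure D4:**
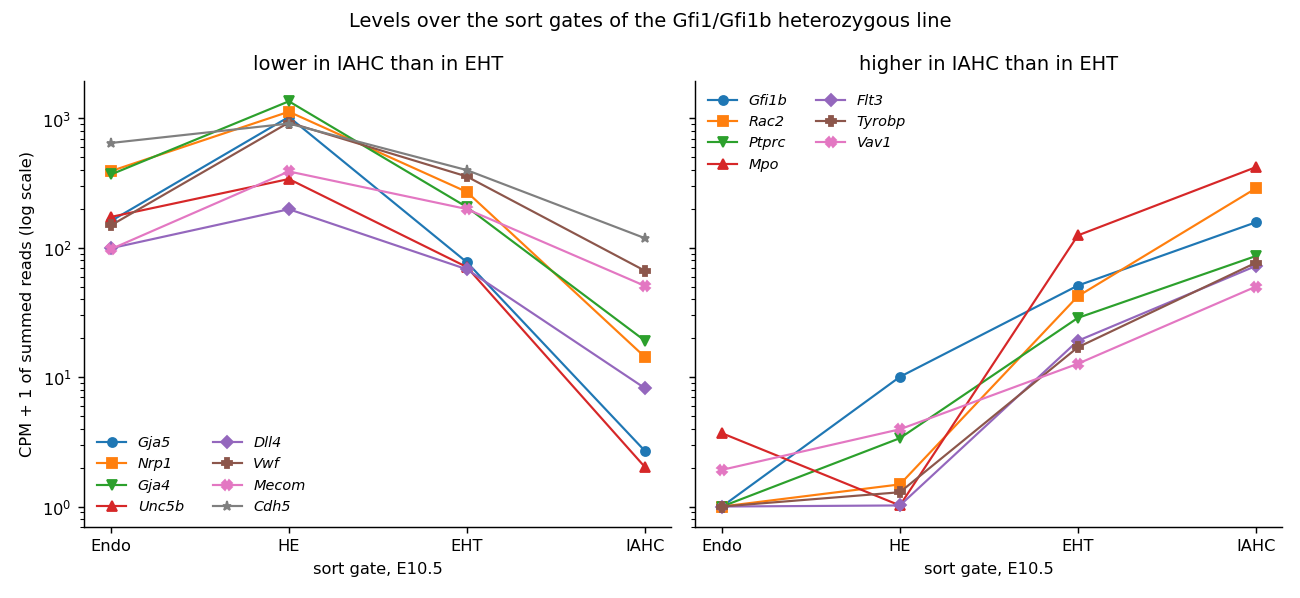
CPM + 1 of summed reads (vertical, log scale) in the 4 sort gates of the heterozygous Gfi1/Gfi1b line at E10.5 (horizontal; HE without cells of at least 1% globin reads) for 8 genes lower (left) and 7 genes higher (right) in IAHC than in EHT. The genes at left peak in HE and are lowest in IAHC. Those at right are at 9.06 CPM or less in Endo and HE and highest in IAHC, which for Gfi1b follows from the sort.

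EHT cells were the more varied group. After thinning to 100000 reads, single EHT cells had reads of 0 to 19 of the 19 arterial genes (median 9) and of 6 to 21 of the 25 leukocyte signalling genes (median 12). IAHC cells had 0 to 15 arterial genes (median 3) and 12 to 22 leukocyte genes (median 18). Within EHT the 2 counts ran against each other across 41 cells (Spearman -0.77, Pearson -0.75), and in IAHC across 42 cells less so (Spearman -0.19, Pearson -0.40). The EHT cells with the most arterial genes, 2 cells with all 19, had 10 leukocyte genes each, while the EHT cell with no arterial gene had 18 leukocyte genes, the IAHC median. In EHT the level of Gfi1b went with more leukocyte genes (Spearman 0.43) and fewer arterial genes (-0.48). Against the reads of a cell before thinning, the EHT counts of arterial and leukocyte genes had Spearman correlations of 0.20 and -0.25, and against the number of all genes with reads in the thinned cell 0.36 and -0.15. These correlations are descriptions over cells that share a sort and an unknown number of embryos.

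**Figure D5:**
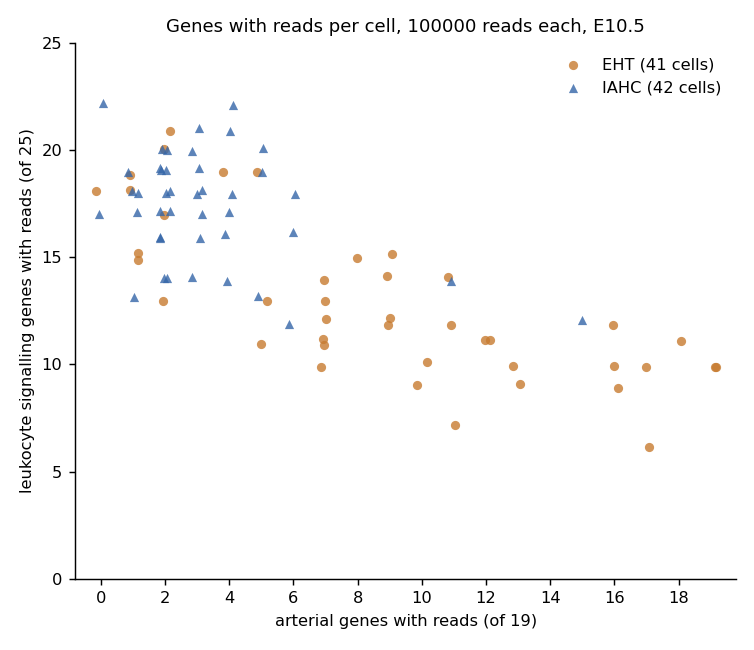
Number of arterial genes (horizontal, of 19) and leukocyte signalling genes (vertical, of 25) with reads in each cell after thinning to 100000 reads, for 41 EHT cells (circles) and 42 IAHC cells (triangles), with points shifted slightly at random. EHT cells spread from many arterial and few leukocyte genes to the corner where most IAHC cells lie.

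A second pair of the same gates shares no cell with the first, but its labels and cells were less certain. It holds 22 IAHC cells of E11.5, of which 14 had at least 1% globin reads, and 42 EHT cells titled E11.5 whose stage field says E10.5, so their stage is uncertain. With the 8 remaining IAHC cells, 22 of the 31 named genes higher in IAHC at E10.5 and 39 of the 46 lower had the same direction. A ratio of any size was counted, and some were near 0, such as log2 ratios of 0.006 for Ltb, 0.13 for Flt3, -0.04 for Unc5b and -0.03 for Nos3. The same count over all genes is not reported here. With all 22 cells the counts were 11 and 42, and the median log2 ratio over genes with enough reads was -1.22 (-0.04 without the 14 cells). Without those cells Rac2 was at 378.5 CPM in IAHC and 159.2 CPM in EHT, and Ptprc at 289.5 and 173.6 CPM. Nrp1 was at 143.1 and 335.7 CPM. Gja5 was at 110.4 and 137.1 CPM, Vwf at 577.03 and 677.4 CPM and Mecom at 293.4 and 328.4 CPM, differences much smaller than at E10.5, and Ighm turned from higher to lower, at 0.865 and 29.2 CPM. The stage and the small number of cells cannot be told apart in these smaller ratios.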

How the data were processed

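The authors deposited whole-number counts of reads per gene and cell, without normalization, from single-cell Smart-seq2 libraries. The submitters' processing notes name bcl2fastq, STAR 2.4.2a, HTSeq 0.6.1p1, R 3.6.2 and GRCm38. Annotation, strand setting and cell filter: not given in the sources used here, so reads of overlapping or antisense genes cannot be told apart. The table copy used here ends within a row: 36131 genes were held whole and later ones were not analysed here. Of 1288 cell columns, 316 were used and 972 were not; 10 genes share a symbol and were kept apart by identifier. The 169 cells of another table were not used.

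Groups followed the labels. Reads were summed per group and divided by its total per 1000000 (CPM), with exact Poisson and Clopper-Pearson intervals at 95%. Log2 ratios have 1 CPM added to both sides. List members were measured with more than 3 reads in either group. No doublet caller was run. Named genes were the 5 markers, the gate genes and Runx1 (Ly76, the gene of TER119, was not used here), the 15 highest and 15 lowest past the fold, and up to 5 members of each of 25 lists with at least 20 CPM; other list members stand as examples chosen after their values were seen. Sex-linked genes, pseudogenes, unnamed predicted genes and those of ribosomal proteins or the mitochondrial genome were left out of the ranked genes. Alternatives changed the cells kept, weighting, depth, scaling, pseudocount and filter. Values of some list members are not reported here. The cells and lists were chosen with earlier results of these data known. Scripts (Python 3.11.15, NumPy 2.4.6, pandas 2.3.3, SciPy 1.17.1) were tested on simulated data.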

Additional observations from a re-analysis of the deposited data

How the results depend on the processing

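Under the other settings for cells, weighting, depth and scaling, 2.14 to 2.60% of genes with enough reads were higher in IAHC and 6.09 to 7.47% lower, and no gene past the fold turned to the opposite call. The exceptions were 3.82% higher with cells of at least 500000 reads (27 IAHC and 21 EHT cells), and, with no filter but more than 3 reads, 11.1% higher and 16.3% lower, as more genes were admitted. The arterial median was -2.13 with a pseudocount of 5 CPM. The mitosis median was -0.24 with the mean of per-cell CPM, -0.23 in thinned cells and -0.23 without the cell with the most reads of each gene. Igfbp3 reversed, to a log2 ratio of 0.12, with cells of at least 500000 reads. Of 77 named genes past the fold, 69 kept the call with those cells (lost: Ptprc, Igfbp3, Fermt3, Ly6e, Ltb, Itgb3, Hbb-y and Zfp36), 72 in thinned cells and 70 without the top cell; apart from the lower depth, the cause was not tested. The pseudocount does not enter these shares. No paired analysis was possible because each group is 1 sample and cells carry only numbers of their own; for the same reason no replicate could be left out. A comparison within plates was not run, since column names give none. Between 1 embryo and another the spread is unknown, and at this depth a gene without reads in a cell may still have been expressed.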

Other observations

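Some abundant genes past the fold were outside the lists and were looked at after their values were seen. Igf2, the fetal growth factor, was at 1822 CPM in IAHC and 4142 CPM in EHT, 2.27-fold lower in IAHC, and was read in every cell of both groups. H19, the noncoding RNA of the same imprinted domain, was at 1152.8 against 2935 CPM, also with reads in every cell. Vim, the intermediate filament vimentin, was at 270.5 against 976.7 CPM. Crip2, a LIM-domain protein, was at 33.6 against 336.7 CPM, and its share of cells with reads was 30.95% in IAHC and 75.6% in EHT. Among the abundant genes that were higher, Cmtm7, a membrane protein of B-cell signalling, was at 330.7 against 152.9 CPM and Samsn1, an adaptor of blood cells, at 297.02 against 119.3 CPM. Cdk6, the cyclin-dependent kinase of blood progenitors, was at 221.3 against 105.95 CPM. Adgrl4, an adhesion receptor known from endothelium, was at 224.8 against 77.2 CPM, so it was higher in IAHC while the other endothelial genes described were lower or between the thresholds.

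Some cells stood apart from their gate. The IAHC cell with the most arterial genes had reads of 15 of the 19 after thinning and 12 leukocyte signalling genes, a number no IAHC cell was below, and no read of Gfi1b. The next had 11 arterial and 14 leukocyte genes, and all other IAHC cells had 6 arterial genes or fewer. Of the 3 IAHC cells without Gfi1b reads, the other two had 6 and 5 arterial genes and 16 and 20 leukocyte genes. The cell with the most reads, 1632137, was 1 of these 3.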
